A study of Mus musculus with 9 samples.

Results

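The Zfp genes were examined as a class: 212 of the 14860 genes measured, each with a mouse symbol made of Zfp and a number (zinc finger protein). Each was read from a transcript cluster that carries 1 gene symbol, and where a gene had more than 1 such cluster the brightest was kept. Expression was measured in 3 populations of mouse embryonic stem cells, line E14.1 (129/Ola), taken towards the heart, with 3 arrays in each: cTnT+ cardiomyocytes, named for cardiac troponin T and cultured on from the Flk1+Pdgfra+ fraction, Flk1+Pdgfra+ cardiac progenitors, and Flk1+ progenitors, sorted as negative for Pdgfra. The labels give 1 parental line, no age or day of culture and no genetic change. The labels number the replicates without saying whether each had its own culture, so the p-values rest on a spread among arrays that may be only technical. Whether the cTnT+ cells were sorted for troponin is not stated.

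A classical zinc finger is a short loop of protein folded around a zinc ion, and proteins with arrays of such fingers bind DNA through them. Many Zfp genes encode KRAB zinc finger proteins, whose KRAB domain recruits the co-repressor Trim28 and, through it, histone methyltransferases and heterochromatin proteins that silence retroelements and imprinted loci in embryonic stem cells. Genes of that kind arose by tandem duplication and lie in clusters. The symbol also covers proteins of other kinds, among them the mRNA-binding Zfp36 family, whose fingers bind RNA.

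Expression values are RMA levels on the log2 scale, in which 1 unit is 2-fold. A gene is said to rise or fall only where limma gave an adjusted p under 0.05 over all 14860 genes, and such a gene is termed called. Pdgfra read 11.42, 10.95 and 11.56 in cTnT+, 11.14, 11.07 and 11.84 in Flk1+Pdgfra+ and 6.55, 6.99 and 7.35 in Flk1+. Tnnt2, which encodes cardiac troponin T, read 12.59, 12.40 and 11.85 in cTnT+, 7.09, 7.34 and 6.61 in Flk1+Pdgfra+ and 8.54, 8.77 and 7.77 in Flk1+. All 6 measured cardiomyocyte markers rose in cTnT+ over both progenitor fractions, but 6 of 7 smooth muscle and fibroblast markers did so too. All 7 endothelial markers were higher in cTnT+ than in Flk1+Pdgfra+ and lower in Flk1+Pdgfra+ than in Flk1+. Flk1+ replicate 3 stood apart from its group, with the stem cell factors Pou5f1 at 10.73 and Nanog at 10.99, against 6.69 and 7.41 for Pou5f1 and 6.21 and 6.43 for Nanog on the other Flk1+ arrays. Every Flk1+Pdgfra+ array held similar levels, Pou5f1 at 10.47, 10.60 and 11.22 and Nanog at 10.56, 10.56 and 11.33. Not all of the 8 listed stem cell markers went this way. Of the 8, 0 were called higher in Flk1+Pdgfra+ than in Flk1+ and 1 lower. The latter was Dppa4, at 5.33, 5.09 and 4.91 in Flk1+Pdgfra+ and 7.98, 8.70 and 8.86 in Flk1+. All 4 measured markers of nascent mesoderm were higher in Flk1+Pdgfra+ than in Flk1+. Replicate 3 of Flk1+Pdgfra+ also differed from its group, with the endothelial Pecam1 at 5.83 against 7.86 and 8.04. In bulk samples, fewer cells of a type and less RNA per cell cannot be told apart.

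As a class, the Zfp genes were mostly well within the range of the arrays, and few of them differed widely between the groups. Their level averaged over the arrays ran from 3.49 to 12.57, and 6 members (2.83%) lay below the arrays' lower quartiles (5.60 to 5.69) in every group, against 16.5% of the other genes. Levels of different genes come from different probes and were not ranked. The means of the 3 groups spanned at least 2 log2 units in 3 members (1.42%), against 6.81% of the other genes.

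Between cTnT+ and Flk1+Pdgfra+, 62 members rose and 40 fell. That is 48.1% of the members, beside 41.2% of all genes called in this comparison, 22.5% higher and 18.7% lower. At least a 2-fold change was called in 19 members (8.96%), beside 15.6% of all genes. The median difference was 0.14 for the members and 0.0030 for the other genes, while the mean differences were close, 0.16 and 0.13. On each array the members' median level stood above that of the other genes. It did so by 0.60, 0.55 and 0.54 in cTnT+, 0.81, 0.74 and 0.82 in Flk1+Pdgfra+ and 0.70, 0.69 and 0.58 in Flk1+. By that measure the class stood no higher in cTnT+. Between cTnT+ and Flk1+, 74 rose and 32 fell, which is 106 of 212 (beside 39.2% of all genes, 22.6% higher and 16.6% lower), with medians of 0.18 for the members and 0.05 for the others. The mean differences against Flk1+ were 0.22 for the members and 0.16 for the others. Here 20 members (9.43%) changed at least 2-fold, beside 14.1%. The cTnT+ arrays are shared by both comparisons.

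The split between rises and falls in cTnT+ depends on how the arrays are scaled. With each array centred on its median, the median of all genes became -0.32 against Flk1+Pdgfra+ and -0.28 against Flk1+, and the members split into 29 higher and 73 lower, and 37 higher and 63 lower. Of the called members 28.4% were then higher against Flk1+Pdgfra+, beside 26.9% of all called genes, and 37.0% beside 28.8% against Flk1+. After quantile normalization the splits were 43 higher and 62 lower against Flk1+Pdgfra+, and 53 higher and 51 lower against Flk1+. The higher share was 41.0% of the called members beside 41.3% of all called genes against Flk1+Pdgfra+, and 51.0% beside 41.4% against Flk1+. Against Flk1+Pdgfra+ the rescaled splits of the members were thus near those of all genes. Under all 3 scalings, 29 of the 62 rises and 40 of the 40 falls against Flk1+Pdgfra+ kept their call, as did 35 of the 74 rises and 32 of the 32 falls against Flk1+. No called member was called in the opposite direction. Median centring shifts all genes of an array alike, so it cannot change the gap between the members' median and that of the other genes. Against Flk1+Pdgfra+ the members' median stood above by 0.14 as deposited and by 0.02 after quantile normalization. Against Flk1+ it stood above by 0.13 and 0.09.

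**Figure D1:**
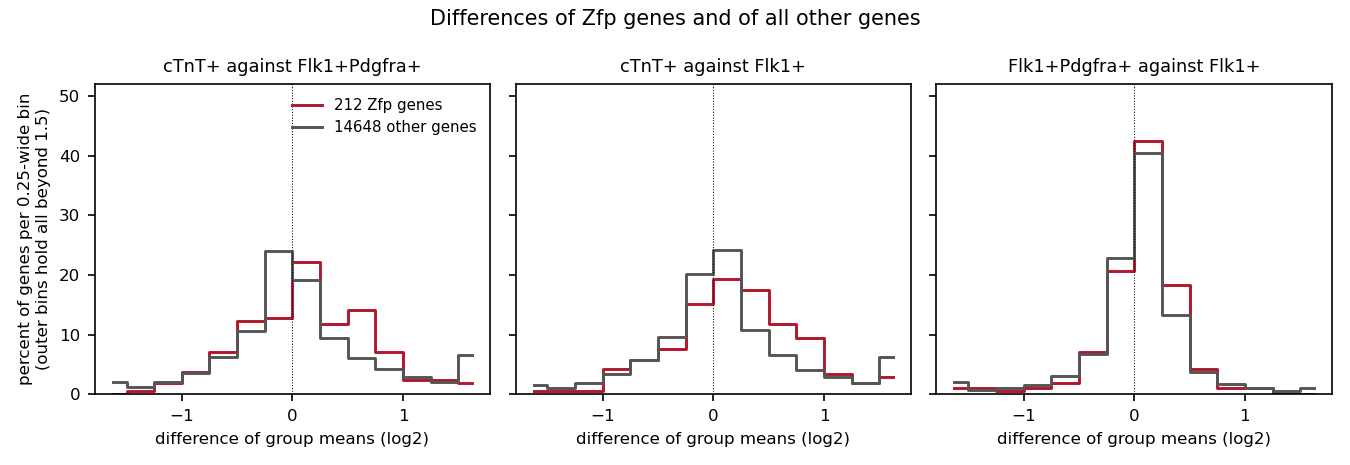
Differences of group means (log2, horizontal axis) as the percent of genes in bins of 0.25 (vertical axis), for the 212 Zfp genes (red) and the 14648 other genes (grey). In both comparisons with cTnT+ the red line lies above the grey one between 0.25 and 1 and below it beyond 1.5, while between the progenitor fractions both lines peak between 0 and 0.25.

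Between Flk1+Pdgfra+ and Flk1+, 15 members rose and 12 fell. That is 12.7% of the members, beside 10.5% of all genes called, 4.64% higher and 5.87% lower. At least a 2-fold change was called in 7 of the 212 members, beside 4.36% of all genes. The medians were 0.08 for the members and 0.07 for the other genes. This count changed with the arrays in the fit. It was 6, 8 and 10 called members without Flk1+Pdgfra+ replicate 1, 2 and 3, and 10, 9 and 36 without Flk1+ replicate 1, 2 and 3. With the third array of both fractions left out it was 26, of which 23 were among the 27. Counts over all genes in these fits are not given here.

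Members that marked a group were those called higher, or called lower, against both other groups with no overlap of arrays. In cTnT+, 52 members (24.5%) were higher than in both progenitor fractions, beside 16.6% of all genes, and 27 (12.7%) were lower, beside 12.5%. In Flk1+Pdgfra+, 4 (1.89%) were higher, beside 2.56% of all genes, and 8 (3.77%) lower, beside 3.77%. In Flk1+, 3 (1.42%) were higher, beside 2.11%, and 6 (2.83%) lower, beside 1.64%. Under median centring the cTnT+ counts became 19 higher and 55 lower, and under quantile normalization 33 and 42. Here and below, shares of all genes are as deposited. Rescaling moved all genes too, as given above for the comparisons of cTnT+ with each fraction.

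Of all members, Zfp462 and Zfp9 had the largest rises in cTnT+. Zfp462, a protein with roles in stem cell identity and heterochromatin, read 11.32, 11.30 and 11.24 in cTnT+, 7.76, 7.72 and 7.45 in Flk1+Pdgfra+ and 8.57, 9.10 and 9.25 in Flk1+. The groups did not overlap, and the order was cTnT+, Flk1+, Flk1+Pdgfra+. It was 12.5-fold higher in cTnT+ than in Flk1+Pdgfra+ (3.64 ± 0.17, log2 and SE, adjusted p = 6.39e-06) and 4.97-fold higher than in Flk1+ (2.31, adjusted p = 4.62e-05). In Flk1+Pdgfra+ it fell by 1.33 relative to Flk1+ (adjusted p = 0.00331). All 3 calls held under every alternative tried.

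Zfp9 read 9.28, 9.72 and 9.23 in cTnT+, 6.50, 6.48 and 5.84 in Flk1+Pdgfra+ and 6.85, 7.27 and 6.70 in Flk1+. The cTnT+ arrays stood well above the rest, and the progenitor fractions did not overlap. It was 8.80-fold higher in cTnT+ than in Flk1+Pdgfra+ (3.14 ± 0.23, adjusted p = 3.06e-05) and 5.55-fold higher than in Flk1+ (adjusted p = 0.00012). The difference of -0.66 between Flk1+Pdgfra+ and Flk1+ had an adjusted p of 0.111, and of 0.0287 with the replicate number as a block.

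Zfp30, which in mouse has been tied to a neutrophil chemokine of the airways, read 8.89, 8.98 and 8.86 in cTnT+, 7.15, 7.04 and 7.45 in Flk1+Pdgfra+ and 7.28, 7.54 and 7.39 in Flk1+. The cTnT+ arrays lay above all others, and the progenitor fractions overlapped. It was 3.24-fold higher than in Flk1+Pdgfra+ (1.69 ± 0.12, adjusted p = 2.91e-05) and 2.83-fold higher than in Flk1+ (adjusted p = 6.80e-05). Zfp810, Zfp938 and Zfp60 were likewise higher on every cTnT+ array than on any progenitor array. Against Flk1+Pdgfra+ these were 2.25-fold, 2.20-fold and 2.04-fold higher in cTnT+, with adjusted p of 0.000174, 0.00103 and 0.0122. On Flk1+Pdgfra+ replicate 3 Zfp60 was at 9.00, close to its cTnT+ values of 9.36, 9.48 and 9.33.

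The next marks of cTnT+ were dim in the progenitors. Zfp677 read 7.32, 7.18 and 7.41 in cTnT+, 5.88, 5.72 and 6.28 in Flk1+Pdgfra+ and 5.35, 5.58 and 5.98 in Flk1+ (differences of 1.34 and 1.66, adjusted p = 0.000759 and 0.00032). Zfp811 read 6.10, 6.63 and 6.37 in cTnT+, 4.87, 5.12 and 5.31 in Flk1+Pdgfra+ and 4.56, 4.68 and 4.77 in Flk1+ (differences of 1.27 and 1.70, adjusted p = 0.00039 and 0.000125). Their progenitor levels lay near or under those lower quartiles, so the folds are no exact measures. Zfp503, a repressor of developing striatal and limb cells, read 8.80, 8.51 and 9.60 in cTnT+, 7.51, 7.67 and 7.82 in Flk1+Pdgfra+ and 8.03, 8.07 and 7.83 in Flk1+. It was 2.47-fold higher than in Flk1+Pdgfra+ (adjusted p = 0.00338). Its rise of 0.99 over Flk1+ (adjusted p = 0.0133) did not pass after quantile normalization or median centring.

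**Figure D2:**
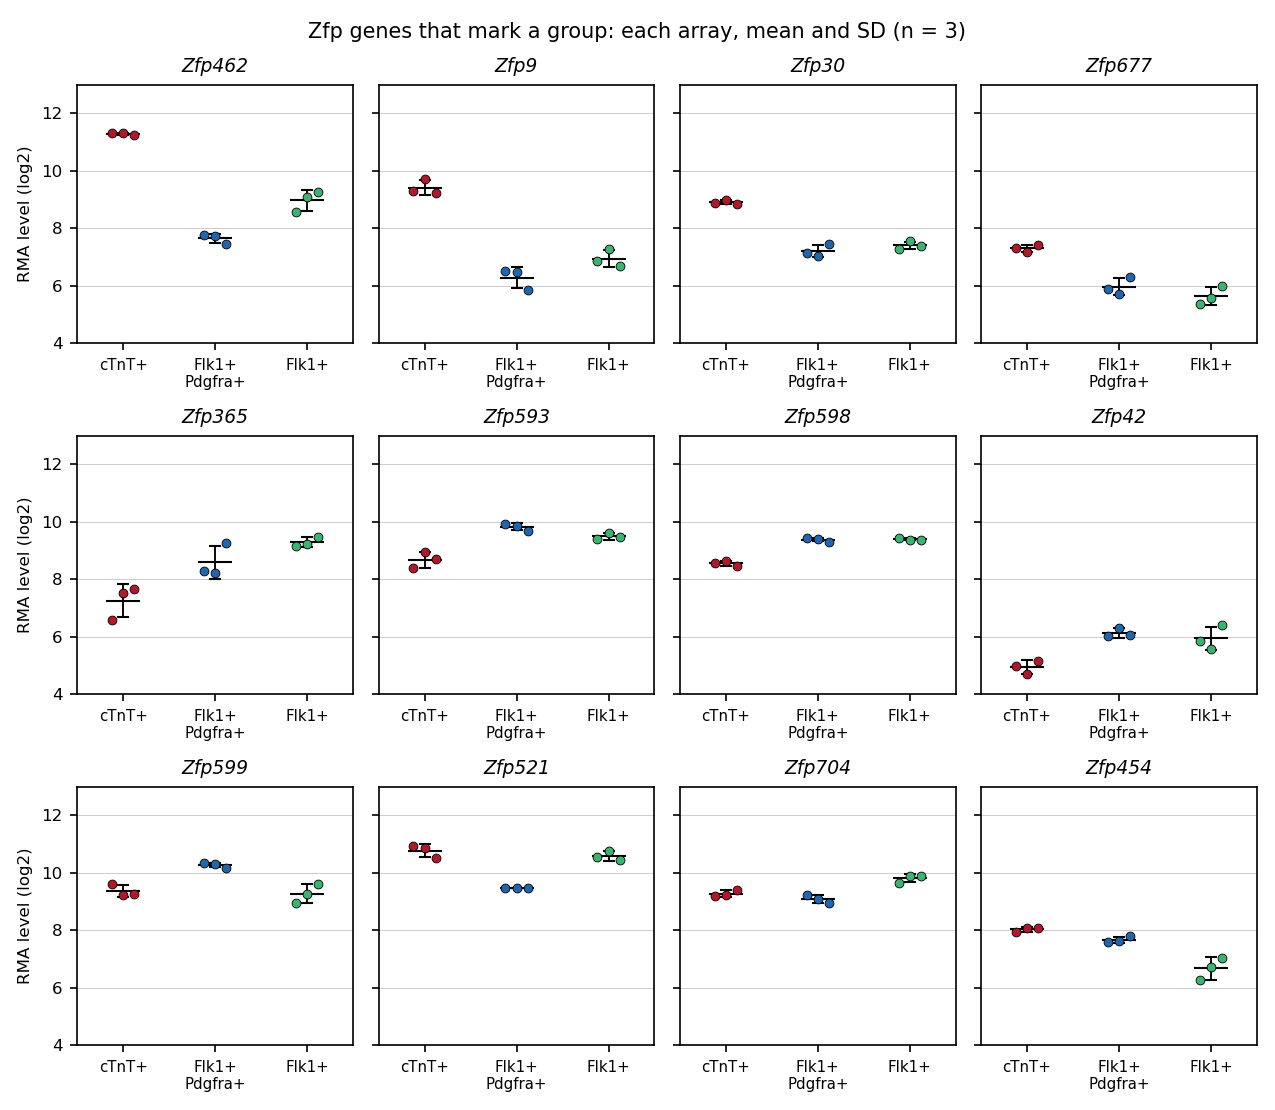
RMA level (log2, vertical axis) of 12 Zfp genes in cTnT+, Flk1+Pdgfra+ and Flk1+ cells. Each point is an array, the horizontal bar the mean and the whisker the SD (n = 3). Zfp462 and Zfp9 stand highest in cTnT+, Zfp365, Zfp593, Zfp598 and Zfp42 are lowest there, and Zfp599, Zfp521, Zfp704 and Zfp454 differ between the progenitor fractions.

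The promoters of members that moved with the cTnT+ state are shown for 4 genes: Zfp30 and Zfp14, which lie in the same stretch of neighbouring Zfp genes on chromosome 7 and both rose, Zfp677, which rose and lies first in a stretch of Zfp genes on chromosome 17, and Zfp365, the member with the largest fall. Zfp14 was chosen after its values were seen. It read 7.99, 8.02 and 8.10 in cTnT+, 6.97, 6.94 and 7.00 in Flk1+Pdgfra+ and 7.26, 7.37 and 7.21 in Flk1+, with no overlap between groups and a rise of 1.07 over Flk1+Pdgfra+ (adjusted p = 2.86e-05). Each window runs from 250 bases before to 50 bases after the start of the gene, 5′ to 3′ on the gene's strand, from RefSeq on GRCm38.p6. Capitals mark CG, the dinucleotide at which mammalian DNA is methylated. The windows lie at chr7:29783718-29784017 (plus strand, Zfp30), chr7:30051347-30051646 (minus strand, Zfp14), chr17:21383498-21383797 (plus strand, Zfp677) and chr10:67912613-67912912 (minus strand, Zfp365).
Zfp30: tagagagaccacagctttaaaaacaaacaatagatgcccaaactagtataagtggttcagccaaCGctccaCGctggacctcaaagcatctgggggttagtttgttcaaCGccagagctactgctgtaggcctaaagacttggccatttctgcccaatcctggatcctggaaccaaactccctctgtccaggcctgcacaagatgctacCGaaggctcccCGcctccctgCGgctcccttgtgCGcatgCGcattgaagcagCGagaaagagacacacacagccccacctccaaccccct
Zfp14: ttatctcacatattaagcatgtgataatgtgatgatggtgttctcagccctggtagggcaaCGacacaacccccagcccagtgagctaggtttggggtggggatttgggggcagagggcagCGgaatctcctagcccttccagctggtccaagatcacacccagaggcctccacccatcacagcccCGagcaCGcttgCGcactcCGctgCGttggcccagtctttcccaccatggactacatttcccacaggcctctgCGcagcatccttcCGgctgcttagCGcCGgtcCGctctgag
Zfp677: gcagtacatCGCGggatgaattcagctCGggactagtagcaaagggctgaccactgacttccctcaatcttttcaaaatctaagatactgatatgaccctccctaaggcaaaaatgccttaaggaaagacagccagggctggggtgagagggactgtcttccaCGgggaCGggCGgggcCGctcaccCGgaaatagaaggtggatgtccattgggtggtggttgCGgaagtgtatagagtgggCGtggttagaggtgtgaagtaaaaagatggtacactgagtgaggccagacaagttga
Zfp365: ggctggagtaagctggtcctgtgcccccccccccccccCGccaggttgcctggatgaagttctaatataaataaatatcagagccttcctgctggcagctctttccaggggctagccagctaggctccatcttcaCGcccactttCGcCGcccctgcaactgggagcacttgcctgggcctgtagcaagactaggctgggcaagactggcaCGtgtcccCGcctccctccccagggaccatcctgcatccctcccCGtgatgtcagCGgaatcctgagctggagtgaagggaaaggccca

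The 4 windows hold 9, 12, 10 and 8 CG. Windows were found for 171 of the 212 members, 223 windows in all. The median was 17 CG a window for the members, 16 for the other measured genes and 7 for every window in the RefSeq table. A window with at least 5 CG was found in 95.1% of the members' windows, in 78.7% of those of the other measured genes and in 62.0% of every window. The motif CG reads the same on both strands. Members that rose in cTnT+ over Flk1+Pdgfra+ had a median of 16 CG, and members that fell had a median of 19.5. These are counts of letters and say nothing of methylation, which was not measured.

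Among the members that fell in cTnT+, Zfp365, a protein of the response to DNA damage, had the largest difference. It read 6.58, 7.52 and 7.65 in cTnT+, 8.29, 8.22 and 9.26 in Flk1+Pdgfra+ and 9.17, 9.21 and 9.48 in Flk1+. The cTnT+ arrays were below all others, and the progenitor fractions overlapped. It fell by 1.34 ± 0.34 relative to Flk1+Pdgfra+ (2.53-fold, adjusted p = 0.014) and by 2.04 relative to Flk1+ (4.11-fold, adjusted p = 0.002).

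Zfp593 read 8.39, 8.93 and 8.71 in cTnT+, 9.93, 9.86 and 9.69 in Flk1+Pdgfra+ and 9.39, 9.61 and 9.47 in Flk1+. It was lowest in cTnT+ and highest in Flk1+Pdgfra+, and no groups overlapped. It fell by 1.15 in cTnT+ relative to Flk1+Pdgfra+ (2.22-fold, adjusted p = 0.000392). Zfp598, the ubiquitin ligase that marks collided ribosomes, read 8.56, 8.63 and 8.46 in cTnT+, 9.42, 9.40 and 9.31 in Flk1+Pdgfra+ and 9.43, 9.38 and 9.37 in Flk1+. It was lower in cTnT+ by nearly the same amount against each progenitor fraction, -0.82 against Flk1+Pdgfra+ (adjusted p = 0.000103) and -0.84 against Flk1+ (adjusted p = 0.000119). Zfp280c read 10.17, 10.29 and 10.27 in cTnT+, 11.18, 11.17 and 11.29 in Flk1+Pdgfra+ and 11.09, 11.06 and 11.08 in Flk1+, a fall of 0.97 relative to Flk1+Pdgfra+ (adjusted p = 3.82e-05) with little spread in any group.

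Other falls in cTnT+ relative to Flk1+Pdgfra+ were Zfp473, Zfp771, Zfp428, Zfp296 and Zfp335. Zfp473, whose human counterpart is a part of the U7 particle that processes histone mRNA, fell by 1.07 (adjusted p = 0.00849). Zfp771 fell by 0.97 (adjusted p = 0.00256) and Zfp428 by 0.95 (adjusted p = 0.00068). Zfp335, a component of a histone methyltransferase complex needed by dividing neural progenitors, read 8.49, 8.74 and 8.58 in cTnT+, 9.30, 9.29 and 9.33 in Flk1+Pdgfra+ and 9.45, 9.60 and 9.53 in Flk1+. It was lower in cTnT+ by 1.63-fold against Flk1+Pdgfra+ (adjusted p = 0.000397) and 1.90-fold against Flk1+ (adjusted p = 0.000135).

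The Flk1+Pdgfra+ cells were marked by few members. Zfp599 read 9.60, 9.24 and 9.26 in cTnT+, 10.32, 10.32 and 10.18 in Flk1+Pdgfra+ and 8.95, 9.24 and 9.60 in Flk1+. The Flk1+Pdgfra+ arrays were above all others, and cTnT+ and Flk1+ overlapped. It was 2.01-fold higher in Flk1+Pdgfra+ than in Flk1+ (1.01 ± 0.17, adjusted p = 0.00893), a call that held under every alternative, and fell by 0.91 in cTnT+ relative to Flk1+Pdgfra+ (adjusted p = 0.00311).

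Zfp131, a partner of the methyl-CpG reader Kaiso, read 9.00, 8.84 and 8.94 in cTnT+, 9.97, 10.01 and 10.19 in Flk1+Pdgfra+ and 9.49, 9.65 and 9.75 in Flk1+. The groups formed 3 separate steps. It fell by 1.13 in cTnT+ relative to Flk1+Pdgfra+ (adjusted p = 7.50e-05) and was 1.34-fold higher in Flk1+Pdgfra+ than in Flk1+ (adjusted p = 0.0321). Zfp324 was 1.34-fold higher in Flk1+Pdgfra+ than in Flk1+ (adjusted p = 0.0101), a call lost under median centring and under quantile normalization. The rise of Zfp105, by 0.50 over Flk1+ (adjusted p = 0.0401), did not pass with the replicate number as a block (adjusted p = 0.0516).

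Members lowest in Flk1+Pdgfra+ were more numerous, at 8 (3.77%) beside 3.77% of all genes. Over all genes, too, more were lower (560) than higher (381) in Flk1+Pdgfra+ than in both other groups. Zfp521, a regulator of early blood cells and of neural commitment, read 10.92, 10.87 and 10.50 in cTnT+, 9.46, 9.46 and 9.46 in Flk1+Pdgfra+ and 10.56, 10.76 and 10.43 in Flk1+. The Flk1+Pdgfra+ arrays nearly coincided below both other groups, which overlapped each other. It fell by 1.12 ± 0.13 in Flk1+Pdgfra+ relative to Flk1+ (2.18-fold, adjusted p = 0.00221) and rose by 1.30 in cTnT+ over Flk1+Pdgfra+ (2.46-fold, adjusted p = 0.00013). Blood markers moved the same way between the progenitor fractions, 5 of 7 falling in Flk1+Pdgfra+, with the log2 of their summed level at 9.73 to 10.29 in Flk1+Pdgfra+ and 11.93 to 12.72 in Flk1+. The endothelial sum was at 9.85 to 11.66 in Flk1+Pdgfra+ and 13.77 to 14.70 in Flk1+. None of these markers has a true zero on this scale, and the part of other cells in the difference was not tested.

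Zfp185, a LIM protein of the actin cytoskeleton in spite of its name, read 8.11, 7.41 and 9.01 in cTnT+, 6.68, 6.78 and 6.42 in Flk1+Pdgfra+ and 8.52, 8.63 and 8.06 in Flk1+. It fell by 1.78 in Flk1+Pdgfra+ relative to Flk1+ (3.42-fold, adjusted p = 0.0177) and rose by 1.55 in cTnT+ (2.92-fold, adjusted p = 0.0086), where its arrays were widely spread. Zfp608 read 11.50, 11.67 and 11.28 in cTnT+, 9.61, 9.59 and 11.02 in Flk1+Pdgfra+ and 11.46, 11.52 and 11.29 in Flk1+. Replicate 3 of Flk1+Pdgfra+ stood close to the Flk1+ arrays and far above the rest of its group. Zfp608 fell by 1.35 relative to Flk1+ (adjusted p = 0.0451), which did not pass with the replicate number as a block (adjusted p = 0.0706). Zfp287 and Zfp948 fell by 0.91 and 0.65 relative to Flk1+, with adjusted p of 0.0204 and 0.00551. The fall of Zfp28, by 1.57 (adjusted p = 0.0185), was steeper, with Flk1+ replicate 3 at 8.47 below the other Flk1+ arrays at 9.54 and 9.80.

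The Flk1+ cells were marked by Zfp710, Zfp704 and Zfp385a on the high side. Zfp704 read 9.18, 9.21 and 9.40 in cTnT+, 9.22, 9.08 and 8.95 in Flk1+Pdgfra+ and 9.65, 9.90 and 9.89 in Flk1+, a fall of 0.73 in Flk1+Pdgfra+ relative to Flk1+ (adjusted p = 0.00642) that held under every alternative. Zfp710 fell by 0.88 in Flk1+Pdgfra+ relative to Flk1+ (adjusted p = 0.036) and Zfp385a, a p53-binding protein, by 0.43 (adjusted p = 0.0198). The Zfp385a call was lost when the 6 progenitor arrays were fitted alone with the replicate number as a block (adjusted p = 0.0613). Zfp454 led the low side. It read 7.94, 8.07 and 8.06 in cTnT+, 7.60, 7.62 and 7.78 in Flk1+Pdgfra+ and 6.26, 6.70 and 7.04 in Flk1+, and was 2.00-fold higher in Flk1+Pdgfra+ than in Flk1+ (adjusted p = 0.0109) and 2.56-fold higher in cTnT+ than in Flk1+ (adjusted p = 0.000593).

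Zfp516, a coactivator of brown fat genes, formed 3 steps. It read 11.18, 11.37 and 10.98 in cTnT+, 10.41, 10.37 and 10.02 in Flk1+Pdgfra+ and 9.10, 9.21 and 9.89 in Flk1+, with Flk1+ replicate 3 close to Flk1+Pdgfra+. It was 3.43-fold higher in cTnT+ than in Flk1+ (adjusted p = 0.000442). The rise of 0.87 in Flk1+Pdgfra+ over Flk1+ (adjusted p = 0.0419) did not pass with the replicate number as a block (adjusted p = 0.0781). Zfp799, Zfp113 and Zfp41 were higher in Flk1+Pdgfra+ than in Flk1+ by 0.71, 0.67 and 0.61, with adjusted p of 0.015, 0.0287 and 0.0118. Zfp385b rose by 1.12 (adjusted p = 0.0419), Zfp184 by 0.66 (adjusted p = 0.0301) and Zfp846 by 0.60 (adjusted p = 0.0448). Of 26 genes named and called between the progenitor fractions, 7 kept their call under every alternative: Zfp454, Zfp462, Zfp521, Zfp599, Zfp704, Zfp948 and the partner gene Trim24. The other 19 lost it in at least 1 fit, most often with a progenitor array left out.

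Members with textbook roles were listed by role. Of 6 measured members known from stem cells and imprinting, 1 rose and 4 fell in cTnT+ relative to Flk1+Pdgfra+ (median -0.51, beside 0.0043 for all genes), and 1 rose and 2 fell relative to Flk1+. Of all genes, 22.5% rose and 18.7% fell relative to Flk1+Pdgfra+, and 22.6% and 16.6% relative to Flk1+. Median centring gave 5 falls in each comparison, with 5406 and 4721 over all genes. Quantile normalization gave 5 relative to Flk1+Pdgfra+ and 3 relative to Flk1+, with 3914 and 3638 over all genes. Of the 6, 1 rose throughout. The riser as deposited was Zfp462. Zfp42, known as Rex1 and a marker of naive stem cells, read 4.98, 4.68 and 5.15 in cTnT+, 6.01, 6.32 and 6.05 in Flk1+Pdgfra+ and 5.83, 5.58 and 6.39 in Flk1+, falling by 1.19 relative to Flk1+Pdgfra+ (adjusted p = 0.00247). All its cTnT+ levels were under the arrays' lower quartiles, so the fold is no exact measure. Zfp57, which protects imprints from demethylation, stayed bright, at 11.55, 11.60 and 11.67 in cTnT+, 11.94, 11.97 and 12.35 in Flk1+Pdgfra+ and 11.68, 11.70 and 11.88 in Flk1+. It fell by 0.48 in cTnT+ relative to Flk1+Pdgfra+ (adjusted p = 0.014).

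Zfp281, a partner of Nanog, fell by 0.42 in cTnT+ relative to Flk1+Pdgfra+ (adjusted p = 0.00379), and Zfp296, a heterochromatin factor of stem cells, by 0.78 (adjusted p = 0.00176). Zfp445, the other imprint protector, had a difference of -0.54 with an adjusted p of 0.0694. Pou5f1 and Nanog fell as well in cTnT+ relative to Flk1+Pdgfra+, among 3 of 8 stem cell markers, and the log2 of the summed marker level was 9.62 to 9.75 in cTnT+, 11.92 to 12.59 in Flk1+Pdgfra+ and 9.93 to 12.56 in Flk1+, where the highest value was replicate 3. The part of remaining stem cells in these differences was not tested. Without Flk1+ replicate 3, the list against Flk1+ still held 1 rise and 2 falls.

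Of 6 measured regulators of mesoderm, neural and other progenitors, 3 rose and 0 fell in cTnT+ relative to Flk1+Pdgfra+, namely Zfp521, Zfp503 and Zfp608, beside 22.5% of all genes higher and 18.7% lower. Under median centring 2 others of the 6 counted as lower and under quantile normalization 1. Relative to Flk1+, 1 rose and 0 fell as deposited (beside 22.6% and 16.6% of all genes), while under each of those rescalings 0 rose and 1 fell. Zfp423, a BMP-responsive factor of fat cell precursors, read 9.17, 9.50 and 9.68 in cTnT+, 9.57, 9.66 and 9.70 in Flk1+Pdgfra+ and 9.65, 9.78 and 9.87 in Flk1+, a difference of -0.19 from Flk1+Pdgfra+ with an adjusted p of 0.301. Zfp609, a cohesin-loader partner and the closest relative of Zfp608, differed by -0.07 (adjusted p = 0.639). Zfp536 was dim in every group, between 4.15 and 4.74.

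Of 7 members tied to division, growth, the ribosome or p53, 4 fell and 0 rose in cTnT+ relative to Flk1+Pdgfra+, and 5 fell and 0 rose relative to Flk1+. Of all genes, 22.5% rose and 18.7% fell relative to Flk1+Pdgfra+, and 22.6% rose and 16.6% fell relative to Flk1+. Median centring gave 6 and 5 falls (5406 and 4721 over all genes) and quantile normalization 4 and 5 (3914 and 3638), with 0 rises among the 7. Besides Zfp365 and Zfp598 these included Zfp367, which fell by 0.51 (adjusted p = 0.00439), and Zfp207, a spindle protein that loads Bub3 onto kinetochores. Zfp207 read 12.36, 12.34 and 12.37 in cTnT+, 12.70, 12.71 and 12.78 in Flk1+Pdgfra+ and 12.59, 12.62 and 12.62 in Flk1+, a fall of 0.37 relative to Flk1+Pdgfra+ (adjusted p = 0.00256). Zfp622 differed by -0.05 (adjusted p = 0.682). Of 4 chromatin partners, Zfp148 rose by 0.54 (adjusted p = 0.000565), a call lost under median centring (adjusted p = 0.167), and Zfp131 fell. Zfp410, the activator of Chd4, and Zfp219 were not called, with differences of -0.20 and 0.32. Under median centring 0 of the 4 rose and 2 fell. Neither measured repressor of retroelements was called as deposited (1 of 2 fell under median centring): Zfp809, which silences murine leukaemia virus in stem cells, differed by -0.61 (adjusted p = 0.124) and Zfp819 by 0.07 (adjusted p = 0.702). The 1 member listed for heart and muscle, the RNA-binding Zfp106, differed by -0.29 (adjusted p = 0.0739).

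The Zfp36 family, which binds AU-rich elements and speeds the decay of mRNAs such as those of cytokines, split in cTnT+. Zfp36, or tristetraprolin, read 8.69, 8.85 and 8.30 in cTnT+, 7.49, 7.68 and 7.97 in Flk1+Pdgfra+ and 7.72, 8.16 and 8.63 in Flk1+. Zfp36l1 read 10.67, 10.97 and 10.63 in cTnT+, 9.64, 9.76 and 10.13 in Flk1+Pdgfra+ and 9.64, 9.79 and 10.14 in Flk1+. Both were higher in cTnT+ than in Flk1+Pdgfra+ with no overlap, by 0.90 for Zfp36 (adjusted p = 0.0184) and 0.91 for Zfp36l1 (adjusted p = 0.00349). Zfp36l2 went the other way, at 10.72, 11.50 and 11.08 in cTnT+, 11.95, 11.97 and 12.32 in Flk1+Pdgfra+ and 12.47, 12.44 and 12.30 in Flk1+. It fell by 0.98 relative to Flk1+Pdgfra+ (adjusted p = 0.00387) and by 1.30 relative to Flk1+ (adjusted p = 0.00106). Zfp36l3, the rodent placental member, read 6.36, 6.26 and 6.45 in cTnT+, 6.88, 7.16 and 7.00 in Flk1+Pdgfra+ and 6.34, 6.36 and 6.94 in Flk1+, and fell by 0.65 relative to Flk1+Pdgfra+ (adjusted p = 0.0137).

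The split of 2 rises and 2 falls against Flk1+Pdgfra+ was the same under median centring and quantile normalization. Of all genes, 22.5% rose and 18.7% fell in that comparison as deposited, and 22.6% and 16.6% against Flk1+. Leaving out single arrays ended the Zfp36 call for 4 of the arrays, with an adjusted p of up to 0.0682, and the Zfp36l3 call for Flk1+Pdgfra+ replicate 2 (adjusted p = 0.0544). Against Flk1+, 1 member rose and 1 fell as deposited, and 1 rose and 2 fell under median centring. Zfp36l1 rose by 0.90 (adjusted p = 0.00417), while Zfp36 was not called (0.45, adjusted p = 0.198), with Flk1+ replicate 3 at the level of cTnT+. Smooth muscle and fibroblast markers (6 of 7) and endothelial markers (7 of 7) rose as well in cTnT+ over Flk1+Pdgfra+. The log2 of the summed smooth muscle and fibroblast level was 14.05 to 14.69 in cTnT+, 10.59 to 11.43 in Flk1+Pdgfra+ and 9.66 to 12.31 in Flk1+, and the part of these cells was not tested.

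**Figure D3:**
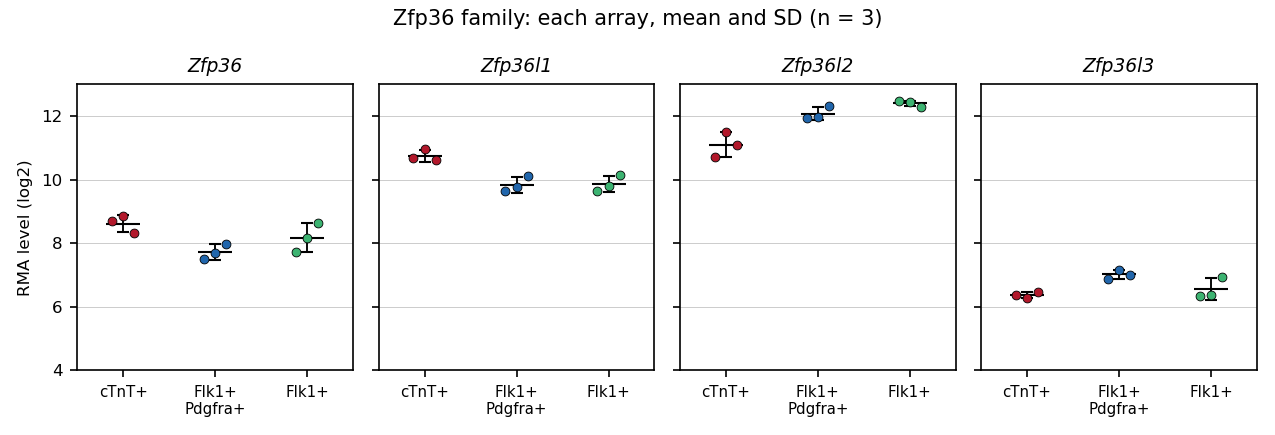
RMA level (log2, vertical axis) of the 4 Zfp36 family genes in cTnT+, Flk1+Pdgfra+ and Flk1+ cells, with each array as a point, the mean as a bar and the SD as a whisker (n = 3). Zfp36 and Zfp36l1 are above Flk1+Pdgfra+ in cTnT+, Zfp36l2 and Zfp36l3 below.

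Position on the chromosome was set against the differences, since KRAB zinc finger genes lie in tandem clusters. No record of protein domains was used, so members with a KRAB domain could not be told from others, and a Zfp neighbour is no sign of one. By the order of protein-coding genes in RefSeq, 90 members lay beside another Zfp gene and 121 beside none, with 1 not placed. Against Flk1+Pdgfra+, 30 of the 90 rose and 12 fell in cTnT+, and 32 of the 121 rose and 28 fell, with medians of 0.17 and 0.06, beside 22.5% of all genes higher and 18.7% lower. With median centring the 90 split into 14 higher and 24 lower and the 121 into 15 and 49. With quantile normalization they split into 21 and 20, and 22 and 42. Of all genes, 1994 were higher and 5406 lower with median centring, and 2752 and 3914 with quantile normalization. Against Flk1+, 38 of the 90 rose and 6 fell, and 36 of the 121 rose and 26 fell, with medians of 0.32 and 0.13, beside 22.6% of all genes higher and 16.6% lower. With median centring the 90 split into 19 higher and 19 lower against Flk1+ and the 121 into 18 and 44. With quantile normalization these were 24 and 17, and 29 and 34. Of all genes, 1909 were higher and 4721 lower against Flk1+ with median centring, and 2575 and 3638 with quantile normalization. The median of the 90 was above that of the 121 as deposited and after quantile normalization. After the latter they were -0.02 and -0.13 against Flk1+Pdgfra+, and 0.05 and -0.05 against Flk1+. Median centring cannot change this gap, since it shifts all genes of an array alike. Genes are not replicates, and no test was made of this difference.

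There were 10 runs of neighbouring Zfp genes with at least 3 measured members. The run from Zfp677 to Zfp983 on chromosome 17 had 6 of 6 measured members above 0 in cTnT+ against Flk1+Pdgfra+ as deposited, by 0.19 to 1.34. So did the runs Zfp595 to Zfp738 (4 of 4), Zfp871 to Zfp870 (4 of 4, 2 called) and Zfp524 to Zfp580 (3 of 3, 2 called). Above 0 were also 63 of the 90 members beside another Zfp gene and 67 of the 121 beside none. In the run from Zfp677 to Zfp983, Zfp677, Zfp948 and Zfp983 passed the test, beside 22.5% of all genes higher and 18.7% lower. Zfp948 read 10.52, 10.83 and 10.78 in cTnT+, 9.90, 9.77 and 9.90 in Flk1+Pdgfra+ and 10.50, 10.51 and 10.51 in Flk1+, a rise of 0.85 over Flk1+Pdgfra+ (adjusted p = 0.000244). Zfp983 read 8.30, 7.80 and 7.90 in cTnT+, 6.95, 7.06 and 7.59 in Flk1+Pdgfra+ and 6.24, 6.76 and 7.00 in Flk1+, and its rise of 0.80 over Flk1+Pdgfra+ (adjusted p = 0.0286) was lost under either rescaling and without any of 4 single arrays, with an adjusted p of up to 0.158.

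The run from Zfp84 to Zfp146 on chromosome 7 held Zfp30 and Zfp14 among 9 measured members, of which 3 rose and 0 fell, by differences of -0.29 to 1.69. On chromosome 9 neighbours moved apart: Zfp810 read 8.12, 8.10 and 8.22 in cTnT+, 6.92, 6.76 and 7.26 in Flk1+Pdgfra+ and 6.87, 6.87 and 6.89 in Flk1+, while Zfp599 fell. The run from Zfp595 to Zfp738 on chromosome 13 had 3 rises among 4 measured of 20 genes. Of all genes, 22.5% were higher and 18.7% lower in this comparison. Counts within runs were made only on the values as deposited. Zfp genes of 1 cluster can be near copies, which was not examined, and probes that read more than 1 of them cannot be told apart here.

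**Figure D4:**
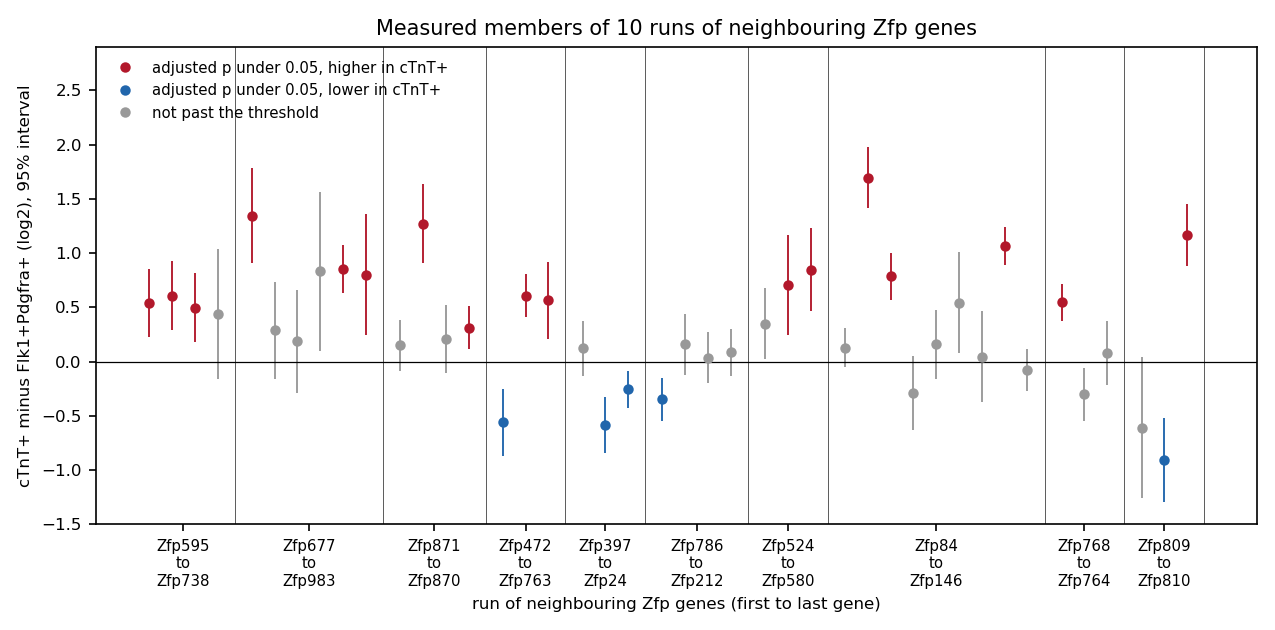
Difference of cTnT+ minus Flk1+Pdgfra+ (log2, vertical axis, with the 95% interval) for each measured member of 10 runs of neighbouring Zfp genes, in chromosome order within a run. Red points rose in cTnT+, blue points fell and grey points did not pass the test. All points of the runs Zfp595 to Zfp738, Zfp677 to Zfp983, Zfp871 to Zfp870 and Zfp524 to Zfp580 lie above 0. The run from Zfp809 to Zfp810 holds both directions.

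The proteins through which KRAB zinc finger proteins act were measured beside the members. Of 26 listed partners, 20 were measured, and in cTnT+ 5 rose and 10 fell relative to Flk1+Pdgfra+ (median -0.35). Relative to Flk1+, 5 rose and 8 fell. Over all genes, 41.2% were called against Flk1+Pdgfra+ (22.5% higher and 18.7% lower) and 39.2% against Flk1+ (22.6% higher and 16.6% lower). With median centring the partners split into 3 higher and 14 lower against Flk1+Pdgfra+ and 2 and 15 against Flk1+. With quantile normalization they split into 4 and 11, and 4 and 9. Median centring also raised the falls over all genes, from 2778 to 5406 against Flk1+Pdgfra+ and from 2464 to 4721 against Flk1+. Quantile normalization gave 3914 and 3638. The co-repressor Trim28 read 12.03, 12.07 and 12.08 in cTnT+, 12.69, 12.69 and 12.68 in Flk1+Pdgfra+ and 12.43, 12.48 and 12.38 in Flk1+. It fell by 0.63 in cTnT+ relative to Flk1+Pdgfra+ (adjusted p = 0.00019). Its rise of 0.26 in Flk1+Pdgfra+ over Flk1+ (adjusted p = 0.0486) did not pass with the replicate number as a block (adjusted p = 0.0871).

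Dnmt3b, the de novo DNA methyltransferase of the early embryo, had the largest difference. It read 8.64, 8.70 and 8.30 in cTnT+, 11.14, 11.14 and 11.05 in Flk1+Pdgfra+ and 10.70, 10.65 and 10.99 in Flk1+, falling by 2.57 relative to Flk1+Pdgfra+ (adjusted p = 8.02e-06). Dnmt3a, its relative, rose by 1.12 (10.82, 10.71 and 10.94 in cTnT+, 9.77, 9.64 and 9.69 in Flk1+Pdgfra+, adjusted p = 3.46e-05). Uhrf1, which brings Dnmt1 to newly copied DNA, fell by 0.99 (adjusted p = 0.00394). Atf7ip, the stabiliser of the histone methyltransferase Setdb1, rose by 1.16 (adjusted p = 3.63e-05), while Setdb1 itself fell by 0.41 (adjusted p = 0.00558). Trim24 fell by 0.72 in Flk1+Pdgfra+ relative to Flk1+ (adjusted p = 0.0105). Dnmt3a fell by 0.40 in Flk1+Pdgfra+ relative to Flk1+ (adjusted p = 0.0219), with an adjusted p of 0.0515 when only the progenitor arrays were fitted, blocked by replicate number. Hdac2 rose there by 0.31 (adjusted p = 0.0429, and 0.072 with the block fitted to the arrays of every group).

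**Figure D5:**
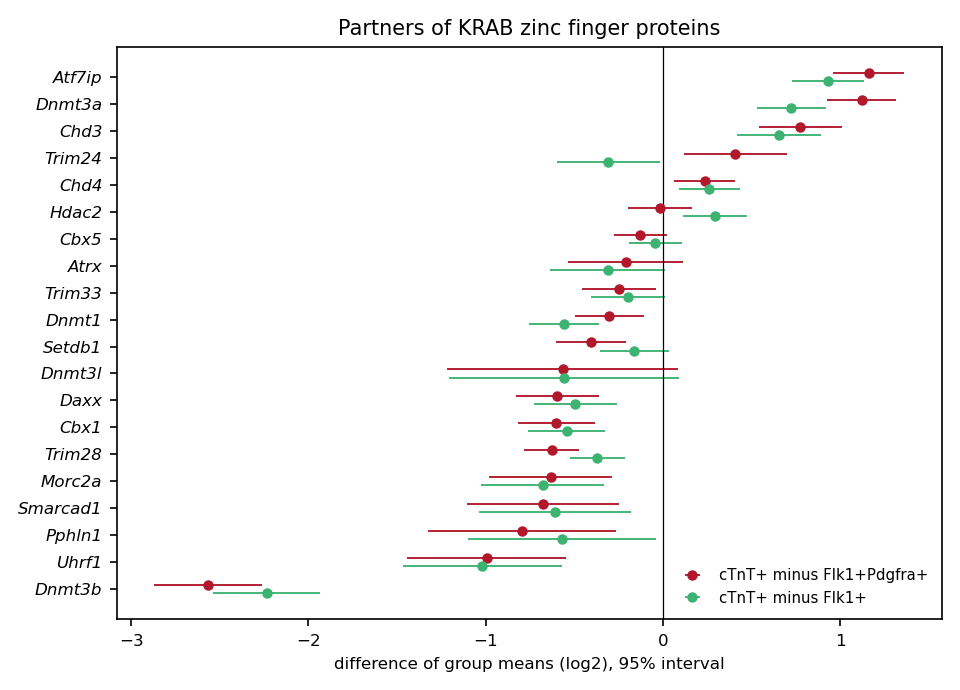
Difference of group means (log2, horizontal axis, with the 95% interval) of 20 partners of KRAB zinc finger proteins, for cTnT+ minus Flk1+Pdgfra+ (red) and cTnT+ minus Flk1+ (green). Dnmt3b lies lowest in both, and Atf7ip and Dnmt3a lie highest.

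For comparison, 78 genes of other zinc finger families (Zbtb, Zscan, Zkscan, Zfpm, Klf, Zic, Zmym and Zc3h) had 21 rises and 16 falls in cTnT+ relative to Flk1+Pdgfra+, 47.4% called, beside 41.2% of all genes (22.5% higher and 18.7% lower) and 48.1% of the Zfp genes, with a median of 0.05. With median centring they split into 13 higher and 30 lower (1994 and 5406 of all genes), and with quantile normalization into 17 and 24 (2752 and 3914). The Zkscan genes, which carry a SCAN domain beside their fingers and often a KRAB domain, are among them. Of 7 Zkscan genes, 6 rose against Flk1+Pdgfra+ and 7 against Flk1+, with median centring 3 and 4 rose, and with quantile normalization 4 and 7, with 0 falls in any of these fits. This family was picked out after its values were seen.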

How the data were processed

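RNA of 9 samples was hybridised to Affymetrix Mouse Exon 1.0 ST arrays. Per the labels' protocols and the submitters' processing notes, the authors deposited log2 values summarised per core gene with RMA, a method that corrects background, normalizes arrays by quantiles and summarises probes, and the notes also name R 3.3.1. For the library file version and the probes' genome build: not given in the sources used here. In all, the table has 23332 rows, of which 14996 carry 1 gene symbol, 1019 several and 7317 none. Symbols were updated through Entrez identifiers against RefSeq (14941 rows matched), and the brightest row was kept for each of 14860 genes. All 212 members matched, and 1 row was set aside for a brighter one. Single values, between 1.47 and 14.2, have no counts behind them, so the number of arrays limits the precision.

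Groups came from the sample titles. limma 3.58.1 in R 4.3.3 fitted 1 coefficient per group over all 9 arrays (lmFit, eBayes without trend, two-sided, 6 residual degrees of freedom), with Benjamini-Hochberg adjustment over all 14860 genes and a threshold of 0.05. This is the source of every adjusted p, SE and 95% interval, and log2 differences are first-named group minus second. In data simulated for cTnT+ against Flk1+Pdgfra+ on 14860 genes, 13 of 50 genes changed by 0.5 (log2), 37 of 50 changed by 1, 44 of 50 changed by 2 and 50 of 50 changed by 4 were called. No gene outside these sets was changed in the simulation, while 41.2% of all genes were called in the data. The adjusted threshold was therefore stricter in the simulation, and these counts do not give the power of the fit to the data.

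Same-numbered arrays of the progenitor fractions deviated together from their group means (correlations of 0.251, 0.325 and 0.460), so for that comparison a fit with the replicate number as a block was read beside the main one. The numbers 1 and 2 are not told apart by this check, since Flk1+Pdgfra+ replicate 1 correlated at 0.347 with Flk1+ replicate 2, and replicate 2 at 0.352 with replicate 1. With cTnT+ the correlations of same-numbered arrays were 0.023 to 0.095, and the main fit did not take the numbers as pairs. The fit with the replicate block held the cTnT+ arrays as well, blocked by the same numbers. A separate blocked fit of the progenitor arrays alone left them out. Other alternatives were quantile normalization, median centring, a filter on the dimmest 25% of genes, array weights, intensity trend, other choices of rows and symbols, fewer arrays in the fit and leaving out arrays.

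Genes were named by rule: per comparison up to 10 rises and 10 falls, by size, of called members without overlap between the groups, per group up to 8 members higher and 5 lower than in both other groups, and lists of members with textbook roles. The members and lists were chosen with earlier results of these data known. Rows with several symbols were left out of the class. Figures were drawn with matplotlib 3.10.9.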

Additional observations from a re-analysis of the deposited data

How the results depend on the processing

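Scaling moved the cTnT+ counts most, and it moved the counts of all genes as well. With median centring, 29 members were higher and 73 lower than in Flk1+Pdgfra+, 37 higher and 63 lower than in Flk1+, 19 higher and 55 lower than in both, and 5 lower in Flk1+Pdgfra+ than in both other groups. With quantile normalization, 62 were lower than in Flk1+Pdgfra+, 51 lower than in Flk1+, 33 higher and 42 lower than in both, 7 marked Flk1+Pdgfra+ on the high side, and the median of the members minus that of other genes against Flk1+Pdgfra+ was 0.0211. Array weights gave 71 higher and 41 lower members in Flk1+Pdgfra+ against Flk1+, 15 and 14 marking Flk1+Pdgfra+ high and low, and 5 and 22 marking Flk1+ high and low. With every row tested, 8 were higher in Flk1+Pdgfra+ than in Flk1+, 2 marked Flk1+Pdgfra+ on the high side, and the members' median stood 0.207 above the others in cTnT+ against Flk1+. Without replicate 3 of both progenitor groups, the members' median stood 0.0765 above the others in Flk1+Pdgfra+ against Flk1+ and 0.196 above in cTnT+ against Flk1+, and 11 members marked Flk1+ on the low side. Leaving out 1 array at a time gave 2 to 25 higher and 4 to 12 lower members in Flk1+Pdgfra+ against Flk1+, with the members' median minus that of the others at -0.0222 to 0.107, and at 0.0926 to 0.196 in cTnT+ against Flk1+. It gave 1 to 7 and 3 to 8 members marking Flk1+Pdgfra+ high and low, and 1 to 4 and 1 to 16 marking Flk1+. The lowest of these counts came without Flk1+Pdgfra+ replicate 1, and 25 and 16 without Flk1+ replicate 3. With the replicate block, 23 members were called between the progenitor fractions, 22 of them among the 27, and of the named members Zfp473 lost its call in cTnT+ against Flk1+ (adjusted p = 0.0614). Hdac2 in cTnT+ against Flk1+ changed sign to -0.041 with median centring (adjusted p = 0.802). In each case where a cause is not given by fewer arrays or more rows tested, the cause was not tested. Of the named genes, 42 of 47 calls between cTnT+ and Flk1+Pdgfra+, 36 of 42 between cTnT+ and Flk1+ and 7 of 26 between Flk1+Pdgfra+ and Flk1+ held under every alternative. Dim members, under the arrays' lower quartiles, have folds of little precision.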

Other observations

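A further 61 transcript clusters carry a Zfp symbol together with other symbols, and were left out because their probes cannot be given to 1 gene. As deposited, their median difference was 0.19 (log2, range -1.48 to 2.20) in cTnT+ against Flk1+Pdgfra+, 0.40 in cTnT+ against Flk1+ and 0.17 in Flk1+Pdgfra+ against Flk1+. The median of all genes in these comparisons was 0.0043, 0.05 and 0.07. These clusters were not examined under other scalings.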
